A study of Mus musculus with 12 samples.

Results

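The genes described here are 10 mouse genes of CD8 T cells and of cytotoxic killing, namely Cd8a, Cd8b1, Cd3d, Cd3e, Cd3g, Gzma, Gzmb, Prf1, Nkg7 and Pdcd1. They were matched by symbol, and all 10 were found among the 50600 genes of the liver count tables. The study gave Rosa26-LSL-dCas9-p300 mice, at roughly 8 weeks of age, either PBS or an adeno-associated virus (AAV.Cbh.gRNA, 1e+12 viral genomes per mouse), and collected the liver 2 weeks later. In these mice the transgene, a catalytically dead Cas9 joined to the p300 acetyltransferase, sits behind a lox-stop-lox cassette, so that it needs Cre to be expressed. All 3 groups carried it. The groups were PBS with no gRNA, virus with a non-targeting control gRNA, and virus with a gRNA against Pdx1, a pancreatic transcription factor, with 4 libraries of polyadenylated liver RNA in each. The source of Cre and the sex of the mice are not given in the sources used here. Whether the 4 libraries of a group are 4 separate mice is not stated either, so the p-values speak only of the spread among libraries, which may be technical.

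CD8 T cells recognise peptides held by MHC class I molecules on other cells and can kill the cells that present them. The T cell receptor signals through the CD3 chains, the CD8 heterodimer binds MHC class I beside it, and the killing is done by granules that hold perforin and granzymes. PD-1, the product of Pdcd1, is an inhibitory receptor that T cells put on after activation. Several of these genes are shared with other cells: natural killer (NK) cells also make granzymes, perforin and Nkg7, and a subset of mouse dendritic cells also makes Cd8a. The liver holds resident T and NK cells.

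The 10 genes lay at 7 places in the genome, in the mm10 annotation of the files. Cd8a (ENSMUSG00000053977.13, chr6:71373427-71379173, plus strand) and Cd8b1 (chr6:71322788-71337494, plus strand) were neighbours with 35.9 kb between them. Cd3g (chr9:44969572-44980431, minus strand) and Cd3d (chr9:44981786-44987339, plus strand) were divergent, with 1354 bases between their starts, and Cd3e (chr9:44998740-45009627, minus strand) lay 11.4 kb beyond Cd3d. The others were single genes: Gzma (chr13:113093825-113100979), Gzmb (chr14:56258856-56262260), Prf1 (chr10:61297833-61304680), Nkg7 (chr7:43437073-43438249) and Pdcd1 (chr1:94038305-94052553). Counts were summed over exons without regard to strand, so reads from an overlapping transcript on the other strand could not be told apart from those of the gene.

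RefSeq start-site windows were found for 9 of the 10 genes in build GRCm38.p6, all but Cd8b1, and the 250 bases before each start were searched on both strands for the core letters of 7 motifs. The 4 windows below are shown as examples because they differ in these letters. The RefSeq start of Gzmb lay 74 bases from the gene start in the mm10 annotation. Capitals mark the ETS core GGAAG or its reverse complement and the RUNX core TGTGGT or its reverse complement. ETS and RUNX proteins are transcription factor families with known roles in T cells. The Cd8a window is chr6:71373177-71373426 on the plus strand, the Pdcd1 window chr1:94052554-94052803 on the minus strand, the Gzma window chr13:113100982-113101231 on the minus strand and the Gzmb window chr14:56262335-56262584 on the minus strand.
Cd8a: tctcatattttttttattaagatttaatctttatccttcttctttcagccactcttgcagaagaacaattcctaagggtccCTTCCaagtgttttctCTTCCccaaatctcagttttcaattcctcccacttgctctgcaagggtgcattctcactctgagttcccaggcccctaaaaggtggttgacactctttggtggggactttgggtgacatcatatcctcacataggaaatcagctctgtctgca
Pdcd1: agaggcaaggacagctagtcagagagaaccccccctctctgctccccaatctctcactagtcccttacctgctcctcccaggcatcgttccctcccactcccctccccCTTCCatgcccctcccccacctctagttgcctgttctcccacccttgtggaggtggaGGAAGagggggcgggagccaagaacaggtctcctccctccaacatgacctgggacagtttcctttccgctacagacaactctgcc
Gzma: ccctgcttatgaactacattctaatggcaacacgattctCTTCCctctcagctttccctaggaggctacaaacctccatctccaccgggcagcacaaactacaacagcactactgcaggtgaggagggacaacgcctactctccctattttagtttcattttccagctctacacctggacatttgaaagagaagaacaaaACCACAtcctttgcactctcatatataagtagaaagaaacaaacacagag
Gzmb: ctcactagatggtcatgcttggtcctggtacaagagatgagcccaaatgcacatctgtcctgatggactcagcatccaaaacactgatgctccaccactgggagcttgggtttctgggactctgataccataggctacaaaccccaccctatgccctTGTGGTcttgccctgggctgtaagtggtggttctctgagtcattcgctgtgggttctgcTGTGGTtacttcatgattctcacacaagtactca

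The RUNX letters were in the windows of the 4 granule genes Gzma, Gzmb, Prf1 and Nkg7 and in none of the other 5, which were those of Cd8a, Cd3d, Cd3e, Cd3g and Pdcd1. Of all 32851 RefSeq windows of this length, 14.0% held them. The ETS letters were in 7 of the 9 windows, against 64.1% of all windows. E-box letters (CAGNTG) were in 6 of 9 (44.8% of all), NFAT letters (GGAAAA) in 1 (20.4%), AP-1 letters (TGANTCA) in 1 (6.75%), T-box letters (GGTGTGA) in 1 (3.33%) and the TATA box letters (TATAAA) in none (12.4%). Where the letters of 2 motifs overlapped, both were counted. A match is a description of the sequence, and binding was not measured here.

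The libraries held from 11824767 to 22008046 counts assigned to genes, and the 10 genes together took only 30 to 410 of them, so the values of these genes rest on few reads. Levels are CPM, the count rate within a library, with library totals scaled by TMM. The targeted gene Pdx1 had 26, 32, 54 and 256 counts in the 4 Pdx1 gRNA libraries, 0, 0, 0 and 2 after control gRNA and none after PBS, which fits the labels. PBS libraries 2 and 3 stood apart from the other 10 in sex-linked RNA: they had 1024 and 828 counts of the Y-linked Ddx3y and 33 and 43 of Xist, while each of the others had at most 3 of Ddx3y and at least 10696 of Xist. No virus library had this pattern, and some of the results against PBS are also given without these libraries. In bulk liver, fewer T cells and less RNA per T cell cannot be told apart.

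Summed over the 10 genes, the level was 10.4, 2.85, 5.23 and 7.44 CPM in PBS libraries 1 to 4, 13.1, 20.2, 17.0 and 11.6 CPM in the control gRNA libraries and 12.3, 4.94, 3.55 and 10.1 CPM in the Pdx1 gRNA libraries. Every control gRNA library was above every PBS library, while the Pdx1 gRNA group held a high pair (libraries 1 and 4) and a low pair (2 and 3). Only library 1 of this group was above all PBS libraries, since library 4 was just below PBS library 1, and libraries 2, 3 and 4 were below every control gRNA library. The 3 CD3 genes alone had sums of 2.20 ± 0.721 (PBS), 3.80 ± 0.884 (control gRNA) and 2.36 ± 1.11 CPM (Pdx1 gRNA; SD, n = 4 in each group). The 2 CD8 genes in the same order gave 0.834 ± 0.536, 3.54 ± 1.08 and 1.72 ± 1.07 CPM, and the 4 granule genes gave 3.35 ± 2.36, 7.34 ± 1.85 and 3.24 ± 1.74 CPM. Per kilobase of exon, the short genes Gzma and Nkg7 were the most abundant of the 10 in all 3 groups, at 3.61 ± 0.801 and 2.64 ± 0.723 CPM per kb after control gRNA, a gap about the size of their spread. Prf1 was the lowest after either virus, at 0.173 ± 0.125 CPM per kb after control gRNA and 0.104 ± 0.0912 after Pdx1 gRNA. Pdcd1 was the lowest after PBS, at 0.0498 ± 0.0578 CPM per kb, which overlapped Cd8b1 (0.0887 ± 0.106) within the spread.

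**Figure D1:**
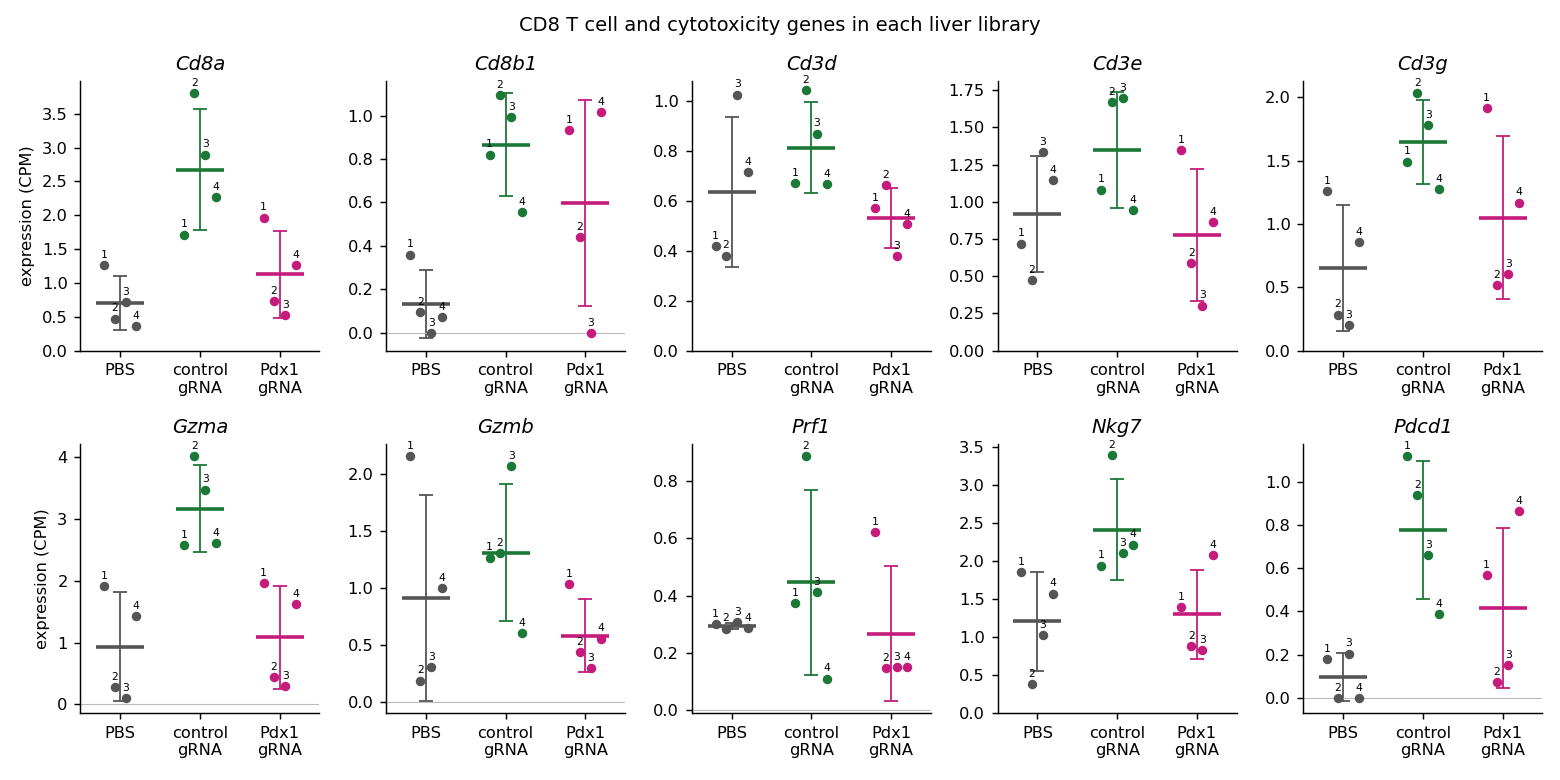
Expression of the 10 genes in CPM (vertical axis, a separate linear scale for each gene) in the 4 PBS, 4 control gRNA and 4 Pdx1 gRNA liver libraries, with points labelled by replicate number, a thick line at the mean and bars of 1 SD. Every control gRNA library lies above every PBS library for Cd8a, Cd8b1, Cd3g, Gzma, Nkg7 and Pdcd1, and Pdx1 gRNA libraries 2 and 3 lie low for most genes.

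The comparison of control gRNA virus with PBS asks how livers given virus with a gRNA that has no target differed from PBS livers. With the source of Cre not given, it is not known whether dCas9-p300 expression also differed between these groups. Its part cannot be told apart from that of the virus. After control gRNA virus, the 2 CD8 chains and PD-1 rose, by 3.70-fold for Cd8a, 5.58-fold for Cd8b1 and 7.55-fold for Pdcd1. The CD3 genes and the granule genes had positive fold changes too, but none of them passed the edgeR test, while DESeq2 and limma-voom each called 4 genes, those 3 and Gzma. Of the 10 genes, 9 passed the filter on low counts and were tested with edgeR, and 3 were called higher (adjusted p under 0.05 over 15219 genes) and none lower, beside 16.3% of all genes called higher and 15.8% called lower. The fold change was positive for 9 of the 9, with a median log2 fold change of 1.25 against -0.01 over all genes. A gene could pass the filter through the control gRNA libraries alone, so these counts describe the genes and are no test of the list. In 6 of the 10 genes all 4 control gRNA libraries lay above all 4 PBS libraries, as did 16.5% of all genes tested.

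Cd8a, the alpha chain of the CD8 co-receptor, had 21, 5, 7 and 5 counts after PBS and 46, 73, 70 and 41 after control gRNA, or 1.26, 0.475, 0.717 and 0.358 CPM against 1.72, 3.81, 2.90 and 2.27 CPM. The groups did not overlap, and PBS library 1 was the highest of its group. The log2 fold change was 1.89 ± 0.48 (SE; edgeR adjusted p = 0.0113). Cd8b1, the beta chain, which pairs with the alpha chain on conventional CD8 T cells and is a narrower mark of them than Cd8a, had 6, 1, 0 and 1 counts after PBS and 22, 21, 24 and 10 after control gRNA. These groups did not overlap either, and the 0 in PBS library 3 allows up to 0.307 CPM, counting error only. Its log2 fold change was 2.48 ± 0.84 (SE; edgeR adjusted p = 0.0381). This call was close to the threshold and was lost in 7 of the 12 fits with 1 library left out. The edgeR adjusted p ran from 0.0528 (without Pdx1 gRNA library 2) to 0.0918 (without PBS library 4) in these fits. Pdx1 gRNA library 2 is in neither group compared, but it shares the filter, the scaling and the estimate of spread. The others were the fits without PBS 2 or 3 and without control gRNA 1, 2 or 3.

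Pdcd1 had 3, 0, 2 and 0 counts after PBS, where the zeros allow up to 0.285 CPM in library 2 and 0.215 CPM in library 4, and 30, 18, 16 and 7 counts after control gRNA. In CPM this was 0.180, 0, 0.205 and 0 against 1.12, 0.939, 0.662 and 0.388, with no overlap and with control gRNA library 1 the highest. The log2 fold change was 2.92 ± 0.85 (SE; edgeR adjusted p = 0.0208), the largest of the 9 tested genes and the one with the largest SE. The adjusted p was 0.0535 without PBS library 2, 0.0526 without PBS library 4 and 0.0567 without control gRNA library 1.

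Cd3d, Cd3e and Cd3g encode the delta, epsilon and gamma chains that carry the signal of the T cell receptor on all T cells, CD4 and CD8 alike. Cd3e was at 0.719, 0.475, 1.33 and 1.14 CPM after PBS and at 1.08, 1.67, 1.70 and 0.942 CPM after control gRNA. The groups overlapped, with PBS libraries 3 and 4 above control gRNA library 4. Its log2 fold change was 0.56 ± 0.45 (SE; edgeR adjusted p = 0.363). Cd3d overlapped as well (0.635 ± 0.300 CPM after PBS and 0.812 ± 0.181 after control gRNA; log2 fold change 0.37 ± 0.37, adjusted p = 0.474). Cd3g was separate, at 1.26, 0.285, 0.205 and 0.859 CPM after PBS and 1.49, 2.03, 1.78 and 1.27 CPM after control gRNA, but its log2 fold change of 1.25 ± 0.53 was not called (adjusted p = 0.0865). PBS libraries 2 and 3 were at the bottom for Cd3g, and without them its log2 fold change was 0.61, while library 3 was the highest PBS library for Cd3d and Cd3e. Without PBS library 1, the highest for Cd3g, the adjusted p of Cd3g was 0.0230.

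Among the granule genes, Gzma encodes granzyme A and Gzmb granzyme B, the serine proteases that enter the target cell, Prf1 encodes perforin, which forms the pore, and Nkg7 encodes a granule membrane protein of T and NK cells. Gzma had 32, 3, 1 and 20 counts after PBS and 69, 77, 84 and 47 after control gRNA. No PBS library reached the control gRNA range, and PBS libraries 1 and 4 were far above libraries 2 and 3. The log2 fold change was 1.68 ± 0.68 (SE; edgeR adjusted p = 0.0745), short of the threshold. It passed with DESeq2 (adjusted p = 0.0394) and limma-voom (adjusted p = 0.0307), and in edgeR with library sizes alone (adjusted p = 0.0431) and without PBS library 1 (adjusted p = 0.0263). Most alternative fits did not call Gzma: it was called in 5 of 23, with an adjusted p of up to 0.335. Its log2 fold change ran from 0.89 to 2.27 across them. Nkg7 was at 1.86, 0.380, 1.02 and 1.57 CPM after PBS and 1.94, 3.39, 2.11 and 2.22 CPM after control gRNA, separate by a narrow margin. The edgeR estimate for it was 0.96 ± 0.44 on the log2 scale (adjusted p = 0.110, and 0.0468 without PBS library 1). Nkg7 was called in only 1 of 23 alternative fits, with an adjusted p of up to 0.483. Gzmb was at 2.16, 0.190, 0.307 and 1.00 CPM after PBS, where library 1 was above every control gRNA library (1.27, 1.30, 2.07 and 0.610 CPM). Its log2 fold change was 0.45 ± 0.61 (edgeR adjusted p = 0.606). Prf1 had 3 to 5 counts in the PBS libraries and 10, 17, 10 and 2 after control gRNA and was below the filter. By an exact two-sided permutation test of its CPM over 70 assignments it gave p = 0.486 (0.729 adjusted over its 3 comparisons), where 0.0286 is the smallest p this design allows.

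Without PBS libraries 2 and 3, which had the male pattern, none of 10 tested genes was called, and the adjusted p was 0.0926 for Cd8a, 0.205 for Cd8b1 and 0.0933 for Pdcd1. The log2 fold changes were then 1.67, 1.91 and 2.92, Gzmb was at -0.29, and the median of the 10 was 0.59. With 2 PBS libraries left, 6.91% of all genes were called higher. The part of sex in the differences was not tested.

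**Figure D2:**
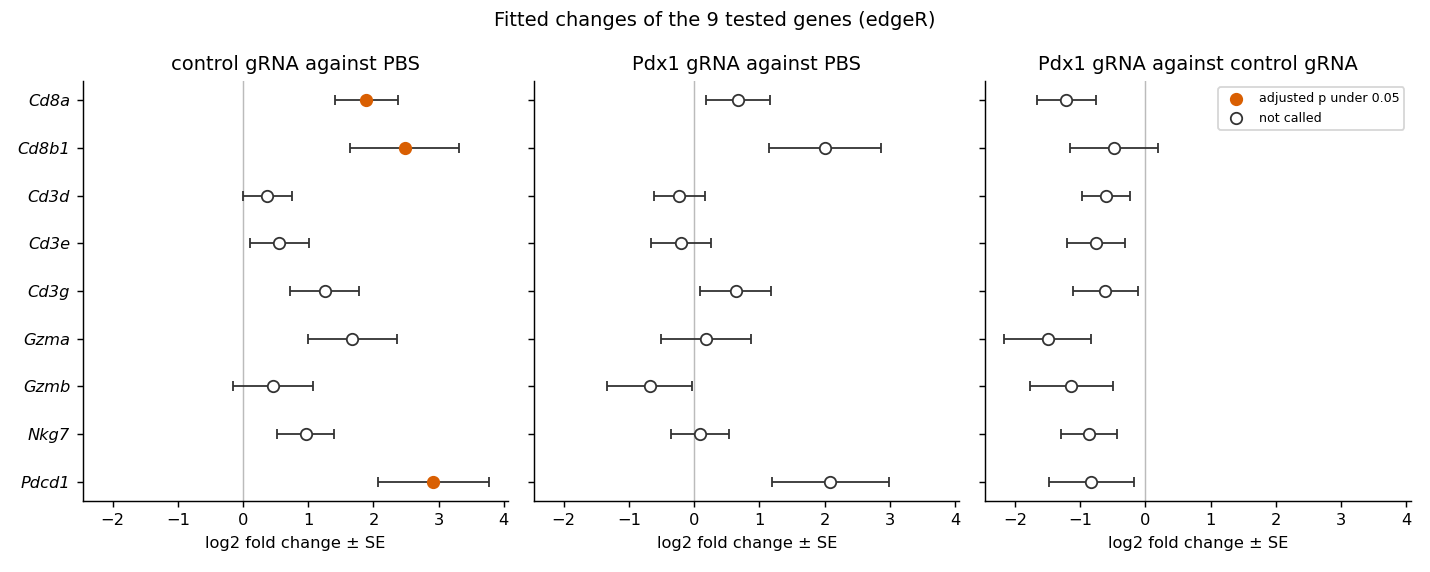
Fitted log2 fold changes (horizontal axis) with bars of 1 SE for the 9 tested genes in the 3 comparisons, from 1 edgeR fit of all 12 libraries; filled points passed an adjusted p of 0.05. Cd8a (1.89), Cd8b1 (2.48) and Pdcd1 (2.92) passed in control gRNA against PBS and no gene in the other comparisons, and all 9 genes lie left of 0 in Pdx1 gRNA against control gRNA.

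The comparison of Pdx1 gRNA virus with PBS asks the same of the virus with an active gRNA. It shares its PBS libraries with the comparison above, so the 2 are not independent. None of the 9 tested genes was called, while 11.7% of all genes were called higher and 10.4% lower. DESeq2 and limma-voom called none of them either. At an unadjusted p under 0.05, edgeR gave 2 genes (Cd8b1 and Pdcd1), DESeq2 2 and limma-voom 1. Log2 fold changes were positive for 6 and negative for 3, with a median of 0.18 against -0.06 over all genes, and no gene had all 4 libraries above PBS, against 12.7% of all genes. Cd3d and Cd3e, at -0.23 and -0.20, turned positive (0.052 and 0.10) when library sizes were used without TMM, a scaling that moved the median of all genes to 0.22.

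Cd8b1 had 18, 6, 0 and 20 counts after Pdx1 gRNA, so that libraries 1 and 4 reached the control gRNA range and library 3 had none, which allows up to 0.227 CPM. Its log2 fold change against PBS was 2.00 ± 0.86 (SE, edgeR adjusted p = 0.114). Without Pdx1 gRNA library 3 it was 2.39 with an adjusted p of 0.0280, and without PBS library 1 it was 3.27 with an adjusted p of 0.0351. These were the only 2 of 21 alternative fits in which Cd8b1 was called. Pdcd1 was likewise higher in Pdx1 gRNA libraries 1 and 4, with 11, 1, 2 and 17 counts. Its log2 fold change was 2.09 ± 0.90 (adjusted p = 0.115). Without PBS libraries 2 and 3, Cd8b1 was at 1.45 and Pdcd1 at 2.11 (edgeR adjusted p = 0.363 and 0.242). Cd8a was at 1.97, 0.737, 0.529 and 1.27 CPM and overlapped PBS. The edgeR estimate was 0.67 ± 0.49 on the log2 scale (adjusted p = 0.350). The remaining 6 tested genes lay between -0.68 (Gzmb) and 0.64 (Cd3g).

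Setting the 2 virus groups against each other asks what the choice of gRNA changed when all mice were given virus. This comparison shares the control gRNA libraries with the first one, so those 2 are not independent either. No gene was called: edgeR called 0% of all genes higher and 0% lower (918 genes had an unadjusted p under 0.05), limma-voom called none, and DESeq2 called 6 higher and 8 lower, none of the 10 among them. All 9 tested genes had negative log2 fold changes, with a median of -0.83 against -0.01 over all genes. Cd8a and Gzma had an unadjusted p under 0.05. In 2 of the 10, Cd3d and Gzma, all 4 Pdx1 gRNA libraries lay below all 4 control gRNA libraries, against 3.17% of all genes.

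Gzma was at 1.97, 0.442, 0.302 and 1.63 CPM after Pdx1 gRNA, below the 2.57 to 4.02 CPM of the control gRNA libraries, with a log2 fold change of -1.50 ± 0.66 (SE; edgeR adjusted p = 0.809). Cd8a gave -1.21 ± 0.46 (unadjusted p = 0.0196, adjusted p = 0.809), with Pdx1 gRNA library 1 inside the control gRNA range. Gzmb followed at -1.13 ± 0.63. The other 6 lay between -0.87 (Nkg7) and -0.48 (Cd8b1). An adjusted p above the threshold does not show that the 2 viruses gave the same level. All 8 libraries of this comparison were high in Xist and had at most 3 counts of Ddx3y.

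Ratios of counts within a library do not depend on scaling, and they show whether 1 gene moved more than another. In all, 11 ratios were tested in the 3 comparisons, each as log2 of counts with 0.5 added, by an exact two-sided permutation test over 70 assignments. Of the 33 tests, 2 reached 0.0286, the smallest p possible, and none passed after adjustment (smallest adjusted p = 0.471). These 2 were Pdcd1 to Cd3e in control gRNA against PBS and Gzma to Cd3e in Pdx1 gRNA against control gRNA.

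Pdcd1 per Cd3e count was 0.280, 0.0909, 0.185 and 0.0303 in the PBS libraries and 1.03, 0.569, 0.398 and 0.429 after control gRNA. The groups did not overlap, and the log2 ratio differed by 2.36. After Pdx1 gRNA it was 0.434, 0.176, 0.556 and 1.00, with library 4 like the highest control gRNA library. Cd8a per Cd3e count was 1.72, 1.00, 0.556 and 0.333 after PBS, 1.58, 2.26, 1.70 and 2.37 after control gRNA and 1.45, 1.24, 1.67 and 1.46 after Pdx1 gRNA. PBS library 1 was within the virus range and the other 3 were below it, and the difference of 1.37 between control gRNA and PBS gave an exact p of 0.0857. Gzma per Cd3e count was 2.36, 2.38, 2.04 and 2.71 after control gRNA and 1.45, 0.765, 1.00 and 1.86 after Pdx1 gRNA, without overlap and with a log2 difference of -0.98. The log2 ratio of Cd3e to Ptprc, the CD45 gene of all leukocytes, differed by 0.05 between control gRNA and PBS (exact p = 0.943). As a ratio of counts it was 0.0515, 0.0341, 0.141 and 0.0401 in PBS libraries 1 to 4 and 0.0531 to 0.0646 after control gRNA. PBS library 3 was thus above every control gRNA library and the other PBS libraries were below, so the small difference does not show a constant ratio.

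**Figure D3:**
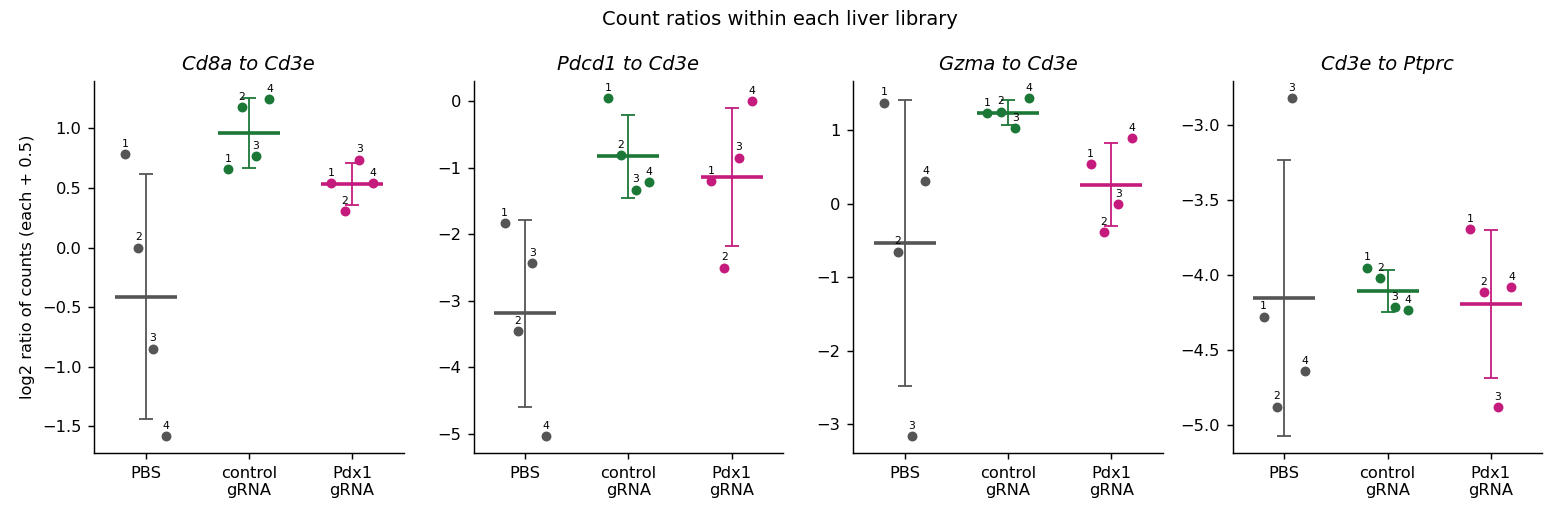
Log2 ratios of counts within each library (vertical axis, 0.5 added to each count, a separate scale per panel), with points labelled by replicate number, thick lines at group means and bars of 1 SD. Pdcd1 to Cd3e is higher in all 4 control gRNA than in all 4 PBS libraries, Gzma to Cd3e is lower in all 4 Pdx1 gRNA than in all 4 control gRNA libraries, and Cd3e to Ptprc overlaps in every comparison.

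Other genes of the same pathways were counted in lists that did not include the 10. For these and the lists below, the shares over all genes in control gRNA against PBS were 16.3% called higher and 15.8% called lower. Of 17 tested genes of the T cell receptor and its signal, 1 was called higher in control gRNA against PBS and none lower, with a median log2 fold change of 0.43. The called gene was Tcf7, a T cell transcription factor gene (1.12 ± 0.17, edgeR adjusted p = 0.000893), which rose against PBS after Pdx1 gRNA as well (1.38). Its pattern was unlike that of the CD3 genes: it was at 11.1 to 16.2 CPM in the Pdx1 gRNA libraries, the low pair included. The receptor constant regions gave 0.95 ± 0.50 for Trac and 1.37 ± 0.58 for Trbc2, and neither was called (adjusted p = 0.162 and 0.0870). Cd4 marks helper T cells and is also made by other leukocytes. It was at 1.59 ± 1.36 CPM after PBS and 1.72 ± 0.417 after control gRNA (log2 fold change 0.14 ± 0.57, adjusted p = 0.878). This PBS mean rested largely on library 2, so these means do not show whether Cd4 changed. As log2 CPM minus its mean over all libraries, PBS library 2 was at 1.60, above every control gRNA library (-0.02 to 0.85). The other PBS libraries were below these, at -0.37, -0.03 and -0.68. Between these groups the log2 ratio of Cd8a to Cd4 differed by 1.58 (exact permutation p = 0.0857, adjusted p = 0.471). Of 5 tested CD4 T cell genes, 1 was called higher and 1 lower.

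MHC class I presentation, which CD8 reads, had 4 of 10 genes called higher in control gRNA against PBS: H2-D1 (0.72 ± 0.19), Tap1, Tapbp and Psmb9 (0.92 ± 0.31), with a median of 0.55. Of 8 tested checkpoint genes 3 rose: Tox, an exhaustion-linked transcription factor gene (1.60 ± 0.41), Cd274, which encodes the PD-1 ligand PD-L1 (1.31 ± 0.35, adjusted p = 0.0134), and Havcr2, which encodes TIM-3 (1.41 ± 0.45). Cd274 was at 2.88, 2.38, 4.51 and 4.65 CPM after PBS and at 7.13, 12.1, 10.5 and 5.93 CPM after control gRNA, so that both the receptor and 1 of its ligands were higher without overlap. Of 7 other effector genes 2 rose, the chemokine genes Ccl3 (2.29 ± 0.47) and Ccl4 (2.21 ± 0.57). Among the homing genes, Cxcl10, which encodes a ligand of the chemokine receptor CXCR3 on T cells, rose (2.25 ± 0.41), and S1pr1 (-0.94) and Itga1 (-1.12 ± 0.28) fell. Of 8 granule release genes none rose and 1 fell, the lysosome trafficking gene Lyst (-1.57 ± 0.24). Of 5 inhibitor and cathepsin genes 2 rose, Cstb and Serpinb6a. None of the genes in any of these lists was called in Pdx1 gRNA against control gRNA, where edgeR called 0% of all genes.

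Markers of other cells that share these genes were counted in the same way, again beside 16.3% of all genes called higher. Their part in the results was not tested. Of 9 tested NK cell genes 1 was called higher in control gRNA against PBS, Fcer1g (1.41 ± 0.34), which myeloid cells also make, with a median of 0.65. Its sums ran from 17.2 to 42.4 CPM in PBS libraries, from 33.6 to 75.2 in control gRNA libraries and from 16.2 to 40.5 in Pdx1 gRNA libraries. Of the 9 tested NK cell genes 8 had positive fold changes in control gRNA against PBS. All 9 were negative in Pdx1 gRNA against control gRNA, with a median of -0.90. The NK receptor gene Ncr1 was at 0.317 ± 0.437 CPM after PBS, 0.399 ± 0.219 after control gRNA and 0.336 ± 0.126 after Pdx1 gRNA. PBS library 1, the highest PBS library for Gzma, Gzmb and Nkg7, was also the highest of all 12 for Ncr1 (0.959 CPM). The PBS mean of Ncr1 rested largely on this library, so these means do not show whether the gene changed. Klrd1, another NK marker, was 0.66 to 1.13 above its 12-library mean log2 CPM in the control gRNA libraries. On this scale PBS libraries 1 to 4 were at 0.87, -1.64, -1.53 and -0.10, with library 1 inside the control gRNA range. The list of type 1 dendritic cell genes, whose cells can make Cd8a, had 1 of 8 called higher, Itgax (1.63 ± 0.41), a median of 0.61 and sums between 57.1 and 94.0 CPM (PBS), 81.1 and 105 (control gRNA) and 52.9 and 78.8 (Pdx1 gRNA). All 8 genes of this list were positive in control gRNA against PBS. All 8 were negative in Pdx1 gRNA against control gRNA, with a median of -0.45. The defining genes Xcr1 and Clec9a of the list were detected in every library. Xcr1 was at 0.912 ± 0.551 CPM after PBS and 0.978 ± 0.187 after control gRNA, means that differed by less than their spread. Clec9a varied with the mean standardised log2 CPM of the CD3 and CD8 genes. Its Pearson r was 0.817 over the 8 virus libraries and 0.809 over all 12. Plasmacytoid dendritic cell genes had 3 of 6 called higher, with sums of 213 to 297 CPM after PBS and 374 to 600 after control gRNA. The called genes were Cox6a2, Bst2 and Klk1, while Ccr9 and Tcf4 of the same list were not called. In Pdx1 gRNA against PBS 3 of 6 were called higher as well, with sums of 281 to 394 CPM after Pdx1 gRNA. Without PBS libraries 2 and 3 this was 1 of 6. Whether these cells were more frequent was not tested.

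The general leukocyte list moved with the 10 genes: 3 of 7 were called higher in control gRNA against PBS (Coro1a, Cd52 and Cd48), all 7 were positive with a median of 0.95, and all 7 were negative in Pdx1 gRNA against control gRNA with a median of -0.82. Its sum lay between 42.2 and 104 CPM in PBS libraries, between 77.1 and 172 in control gRNA libraries and between 43.1 and 98.3 in Pdx1 gRNA libraries. Ptprc itself had a log2 fold change of 0.45 ± 0.32 against PBS (adjusted p = 0.299). The macrophage list had 1 of 12 called higher (Cd68), the B and plasma cell list none of 7, the neutrophil list none of 3 and the mast cell and basophil list, whose Fcer1a had no counts in any library, none of 1. Their medians in this order were 0.72, 0.21, 0.86 and -0.50. In Pdx1 gRNA against control gRNA every tested gene of these lists was negative, with medians of -0.67, -0.31, -1.97 and -0.16. Neutrophil sums were 7.65 to 10.9 CPM after control gRNA and 1.37 to 4.50 CPM after Pdx1 gRNA. Hepatocyte genes fell in 6 of 8 (median -1.13) and endothelial genes in 2 of 7 (median -0.63), against 2 of 8 and 1 of 7 with library sizes alone. Without PBS libraries 2 and 3, the leukocyte, NK, dendritic type 1, class I, checkpoint, gamma-delta and effector lists had no called gene in control gRNA against PBS, and the hepatocyte list had none of 8. The plasmacytoid list still had 2 of 6 called higher. The T cell signal, inhibitor and homing lists had 1 each (of 19, 5 and 14). Called lower were 2 of 7 endothelial genes, 1 of 8 granule release genes and 1 of 5 CD4 T cell genes. Over all genes 6.91% were called higher and 7.05% lower. The medians were then -0.04 for NK, -0.08 for homing, 0.29 for class I, 0.67 for leukocyte, 0.93 for checkpoint (10 genes tested), 2.47 for gamma-delta and -0.99 for hepatocyte genes, so that some lists kept medians of similar or larger size with fewer libraries.

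The delta constant region Trdc, a mark of gamma-delta T cells, did not follow the CD3 genes. It had 9, 0, 0 and 0 counts after PBS, 443, 34, 347 and 28 after control gRNA and 48, 33, 45 and 275 after Pdx1 gRNA. The highest 3 libraries were thus control gRNA 1 and 3 and Pdx1 gRNA 4, while those for Cd3e were control gRNA 3 and 2 and Pdx1 gRNA 1. The gene rose in both virus groups against PBS (log2 fold changes of 5.63 ± 1.23 and 5.01 ± 1.23, edgeR adjusted p = 0.00534 and 0.0137). Without PBS libraries 2 and 3 it was called in neither comparison. Tcrg-C1, a gamma chain constant region, had at most 12 counts in any library and was highest in PBS library 1. The transcription factor genes Gata3 and Eomes had their highest values in the same 3 libraries as Trdc: Gata3 reached 10.9 CPM in Pdx1 gRNA library 4 against 0.590 to 1.14 in the other Pdx1 gRNA libraries, and Eomes 2.34 CPM against 0.0755 to 0.414. In Pdx1 gRNA library 4, Pdx1 was also the highest (13.0 CPM against 1.35 to 4.08).

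**Figure D4:**
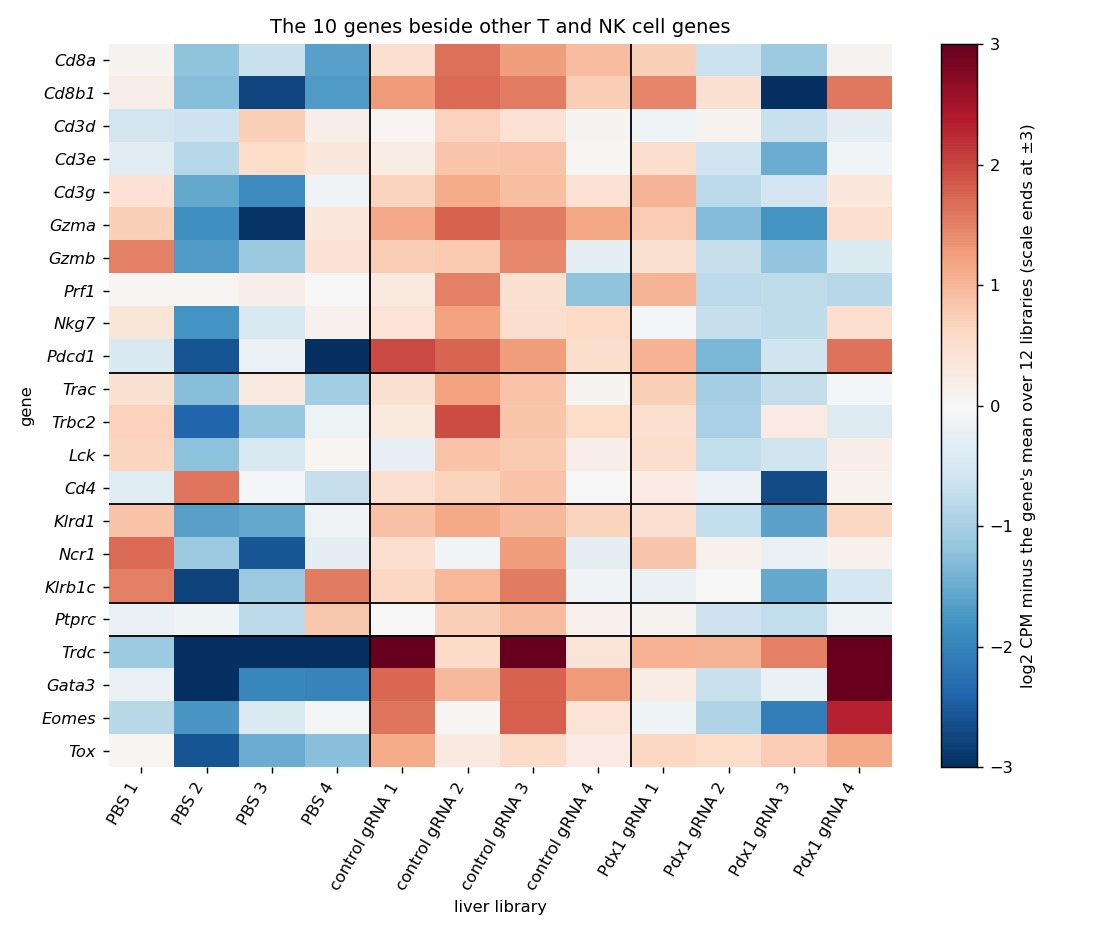
Log2 CPM of each gene minus its mean over the 12 libraries (colour, red high and blue low, scale ends at 3 above and below) for the 10 genes, other T cell genes, NK cell genes, Ptprc, and Trdc, Gata3, Eomes and Tox, with libraries as columns. Pdx1 gRNA libraries 2 and 3 are blue for most of the 10 genes, while Trdc is darkest red in control gRNA libraries 1 and 3 and Pdx1 gRNA library 4.

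Across the 8 virus libraries, the mean standardised log2 CPM of the CD3 and CD8 genes was compared with that of 12986 other genes, as a description. Points share a library and its makeup, and the ranking was over all of these genes, so high values at the top follow in part from the choice of the highest. The 10 most alike were Cd300lf (Pearson r = 0.991 over 8 libraries, 0.768 over all 12), Calhm6 (0.983 and 0.969), Cd72, Mterf1a, Cd74, Ap1s2, Ccl5, Plcb2, H2-Ab1 and Rasal3 (0.968 and 0.842). Cd74 and H2-Ab1 encode the invariant chain and a chain of MHC class II, and both were called higher in control gRNA against PBS, by 0.94 ± 0.26 and 1.20 ± 0.26 on the log2 scale. Ranked by Spearman in place of Pearson, 2 of these 10 were among the top 10. Klrd1, an NK and CD8 T cell receptor gene, was at 0.946 and Ptprc at 0.922 over the 8 libraries, Trac at 0.903, Trdc at 0.09, Tcf7 at -0.19 and Tox at -0.30.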

How the data were processed

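The deposited files held whole-number counts of fragments per gene, 1 file per library; per the file headers, the authors counted paired fragments whose ends both mapped, unstranded, over the exons of each GENCODE gene in mm10 (featureCounts 1.4.6-p4). Per the submitters' processing notes, Trimmomatic 0.32 and STAR 2.4.1a were also used. No normalization had been applied to the deposited counts. Symbols were matched by gene ID (50376 of 50600). Genes were filtered with filterByExpr (minimum count 10), scaled by TMM and fitted in 1 model of all 12 libraries with edgeR 4.0.16 (robust quasi-likelihood test, two-sided, Benjamini-Hochberg over 15219 genes) in R 4.3.3. "Rose" and "fell" stand for an adjusted p under 0.05. DESeq2 1.42.0 and limma 3.58.1 (voom) were alternatives, beside other scalings, filters, a replicate block and each library left out. Single genes under the filter and count ratios were tested by exact permutation with SciPy 1.17.1. The fit was checked on simulated counts. Limits for a count of 0 stand for 3 counts and cover counting error only.

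The 10 genes, the context lists and the tests were chosen with earlier results of these data known. Named genes were all 10 members in each comparison, Ptprc, the 10 genes most alike in the virus libraries, and, from each list, genes among the 3 with the smallest edgeR p in control gRNA against PBS and in Pdx1 gRNA against control gRNA, with markers at 0 counts. Trac, Tcrg-C1, Klrd1, Ncr1, Xcr1, Clec9a, Tapbp, S1pr1 and the sex-linked genes were named after their values were seen. Leaving out PBS libraries 2 and 3 was chosen after seeing the data. The result of 1 gene of the context lists is not reported here.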

Additional observations from a re-analysis of the deposited data

Results flagged for a closer look

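Of 30 sets of 4 libraries (10 genes in 3 groups), 1 held a library far from the others, where chance gives about 1 in 20. Prf1, the perforin gene, was at 0.621 CPM in Pdx1 gRNA library 1 and at 0.147, 0.151 and 0.152 CPM in the others, a gap of 0.989 of the range. The level rests on 12 counts against 2, 2 and 3. The same library was the highest of its group for Cd8a, Cd3e, Cd3g, Gzma and Gzmb.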

How the results depend on the processing

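In control gRNA against PBS, 3 genes were called. This count was 5 with library sizes alone, a scaling that moved the median log2 fold change of all genes to 0.34, 1 with a filter of 1 CPM in 4 libraries (6 of the 10 then tested), 0 without PBS libraries 2 and 3, and 1 to 6 with 1 library left out. It was 6 without PBS library 1, and 1 without PBS library 2, PBS library 4 or control gRNA library 1. Cd8a was called in 22 of 23 alternatives, Pdcd1 in 17 of 21 and Cd8b1 in 14 of 22. Gzmb turned to -0.29 without PBS libraries 2 and 3. In Pdx1 gRNA against PBS the count was 0 to 1 with 1 library left out, and in Pdx1 gRNA against control gRNA it was 0, and the fold change of every tested gene of the 10 was negative, in each alternative run. Against PBS, signs of uncalled genes in the Pdx1 gRNA group turned: with library sizes alone Cd3d was at 0.052 and Cd3e at 0.10, without PBS libraries 2 and 3 Gzma was at -0.59 and Nkg7 at -0.39, and with 1 library left out Cd3d ran from -0.40 to 0.062, Cd3e from -0.61 to 0.046, Gzma from -0.26 to 0.78, Gzmb from -1.11 to 0.18 and Nkg7 from -0.25 to 0.38. Log2 Cd3e to Ptprc ran from -0.19 to 0.49 with 1 library left out, and no ratio passed adjustment in any alternative. The cause of these changes was not tested.

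Replicate numbers did not pair the libraries: 3 of 12 same-number pairs deviated together with a correlation over 0.1, and 2 of 12 libraries correlated best with their own number. With the number as a replicate block, 4 genes were called in control gRNA against PBS (Gzma, at 2.23, was added) and 0 in both other comparisons. The 10 genes had 30 to 410 counts in a library, which limits the precision of every value given for them.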
